A study of Arabidopsis thaliana with 24 samples.

Results

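The transcripts of the plastid and mitochondrial genomes were followed through 24 ATH1 arrays of *Arabidopsis thaliana* seedlings. On this array the probe sets named for 1 plastid gene lie in 1 run of 150 consecutively numbered ones, with a part of the mitochondrial ones. Outside the run are 11 probe sets named for 1 mitochondrial gene. A probe set is the group of short probes that reports 1 transcript. Of the 150, the 115 that belonged to the 72.7% of all probe sets with the highest mean level were kept. By the annotation, 62 of the 115 stand for 1 plastid gene, 11 for 1 mitochondrial gene and 6 for several plastid genes at once. The run is not purely organellar, since 11 of the kept probe sets are annotated to nuclear genes of chromosome 2, 1 matches several genes that were not placed and 24 are not listed in the annotation. These 36 probe sets were kept apart from the organelle genes. Before the filter the run held 69 plastid and 12 mitochondrial probe sets with 1 gene name, and the plastid genome has 85 protein-coding genes in the annotation. At the edge of the filter, *ccmFN2* had a mean level of -2.15 and *petD* of -2.10 just inside, while *ndhH* and *atpI* both had -2.24 just outside. Levels throughout are log2 of a signal over the median signal of its own array, so that 0 is the array median and a step of 1 is a 2-fold difference.

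Plastids and mitochondria keep small genomes of their own, which are left from their bacterial ancestors. The plastid genome codes for core proteins of the photosystems, the cytochrome b6f complex, the ATP synthase and the NDH complex, for the large subunit of Rubisco, and for parts of the RNA polymerase and ribosome that express these genes. The mitochondrial genome codes for core subunits of the respiratory chain and for proteins that mature cytochrome c. Many plastid genes are transcribed together in operons, and most organelle transcripts lack the stable poly(A) tail of nuclear messenger RNA, on which the priming of many labelling protocols relies.

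The seedlings carried a T-DNA insertion in At2g35000 (*atl9*, labelled *rre1-1*) or in At3g16720 (*rre2*, labelled *rre2-1*), or were wild-type Col-0. Each mutant is a single insertion line. All seedlings were grown for 14 days in liquid medium under constant light, received hydrolysed crab-shell chitin at 100 mg/L or water (mock) for 30 min, and were collected whole. There were 6 groups, every line with and without chitin, of 4 biological replicates and as many arrays. The samples are bulk RNA, so that fewer organelles or organelle genomes per cell and less RNA from each of them cannot be told apart.

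The median signal of an array lay between 138.7 and 189.3. All 6 tested genes of a list of early chitin responders rose in each line, among them the calmodulin-like gene *CML37* by 5.13 in *atl9*, 4.98 in *rre2* and 4.21 in Col-0 on the log2 scale. That list was chosen with earlier results of these data known, so that its rise is no independent check of the treatment. Of all probe sets 17% in Col-0, 10.6% in *atl9* and 12.1% in *rre2* passed in either direction. In Col-0 11.4% of all probe sets rose, a share that is not given here for the mutants. The 2 tested root tissue markers and the 2 tested reference genes passed in no comparison by limma, and no probe set for the 2 disrupted genes was named here, so that the insertions were not checked. Instrument records give 4 scan days. Of the 4 arrays of each group, 2 were scanned on day 4, while scan days 1 to 3 held unequal numbers of the lines. Chitin arrays went through fluidics modules 2 and 4, mock arrays through modules 1 and 3, and the effects of module and chitin cannot be told apart.

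The plastid transcripts differed strongly between replicate arrays of the same group. The standard deviation within groups had a median of 1.22 over the 62 plastid genes (10th to 90th percentile 0.595 to 1.84), against 0.260 (0.156 to 0.532) over all probe sets tested. It was above 1 for 41 of the 62 plastid genes, which is 66.1%, and for 1.26% of all probe sets tested. The 11 mitochondrial genes had a median of 0.727, the 24 unlisted probe sets 0.507 and the 11 nuclear ones 0.466. The 6 probe sets for several plastid genes had 2.04. The spread was thus widest for probe sets of the plastid genome, with the mitochondrial genes next.

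**Figure D1:**
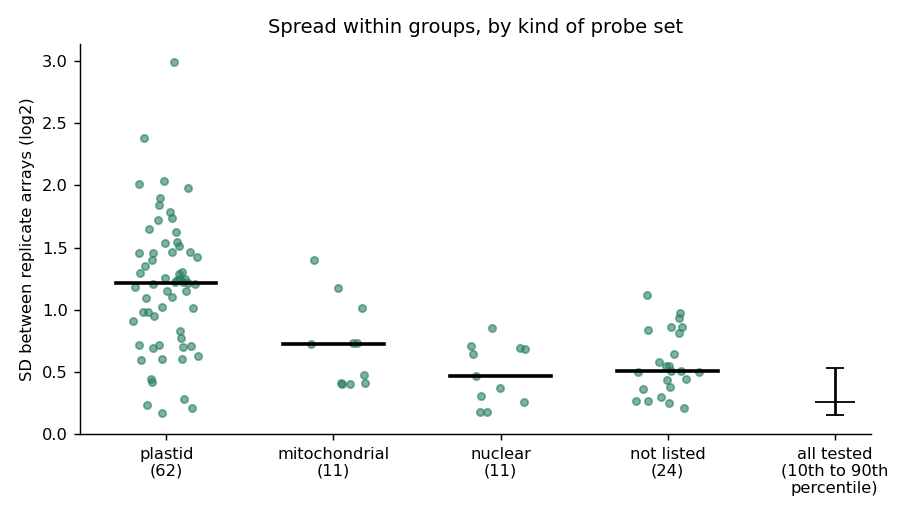
Standard deviation between replicate arrays within groups on the log2 scale, 1 point per kept probe set of the organelle run, by annotation class; black bars are medians, and the last position gives the median and the 10th to 90th percentile of all probe sets tested. The plastid median of 1.22 lies above the 90th percentile of all probe sets, 0.532.

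The gene *atpH*, which codes for the ring subunit of the plastid ATP synthase, had the widest spread of the 62 plastid genes. In *atl9* its levels on replicates 1 to 4 were 3.78, -2.47, 1.35 and 2.63 after chitin and -4.42, 3.61, 3.28 and 1.49 in mock. In *rre2* they were -0.42, 1.62, 3.32 and 1.61 after chitin and -0.78, 4.00, 2.84 and 1.39 in mock. In Col-0 they were -6.12, 4.09, 2.74 and -0.06 after chitin and 3.42, -1.64, 3.28 and 1.37 in mock. Every group held both high and low arrays of *atpH*, and the groups overlapped. The lowest levels, such as -6.12 and -4.42, lie far below the array median. As log2 was taken without an offset, small differences between such dim signals appear large.

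A few plastid genes were steady. The 3 named for their high mean were *psbM*, a small subunit of photosystem II, and *atpB* and *atpE*, the beta and epsilon subunits of the ATP synthase, with standard deviations within groups of 0.229, 0.212 and 0.281. The level of *psbM* was 6.46, 6.64, 6.25 and 6.52 in *atl9* after chitin and 6.75, 6.57, 6.77 and 6.66 in *atl9* mock, 7.03, 6.56, 6.70 and 7.14 in *rre2* after chitin and 6.50, 6.23, 6.46 and 6.84 in *rre2* mock, and 7.07, 6.74, 6.75 and 6.76 in Col-0 after chitin and 6.20, 6.80, 6.50 and 6.97 in Col-0 mock. The level of *atpB* was 6.84, 6.63, 6.36 and 6.79 in *atl9* after chitin and 5.79, 6.65, 6.50 and 6.50 in *atl9* mock, 6.55, 6.50, 6.77 and 6.58 in *rre2* after chitin and 6.26, 6.63, 6.31 and 6.29 in *rre2* mock, and 6.66, 6.89, 6.72 and 6.70 in Col-0 after chitin and 6.57, 6.53, 6.80 and 6.77 in Col-0 mock. Within each line, chitin and mock arrays overlapped for both genes. Between lines after chitin, the *psbM* arrays of Col-0 (6.74 to 7.07) all lay above those of *atl9* (6.25 to 6.64). The level of *atpE* was 6.62, 6.11, 6.05 and 6.46 in *atl9* after chitin and 5.52, 6.33, 6.34 and 6.12 in *atl9* mock, 6.32, 6.11, 6.52 and 6.34 in *rre2* after chitin and 6.07, 6.64, 6.36 and 6.25 in *rre2* mock, and 6.14, 7.06, 6.49 and 6.44 in Col-0 after chitin and 6.46, 6.28, 6.26 and 6.17 in Col-0 mock. It was lowest on replicate 1 of *atl9* mock and highest on replicate 2 of Col-0 after chitin.

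The plastid genes moved up and down together. After the group means were removed, the median correlation between 2 plastid genes over the 24 arrays was 0.787 (10th to 90th percentile 0.450 to 0.924), and a single component held 82.3% of their variance. The correlation of a plastid gene with the mean of the other plastid genes was above 0.8 for 47 and above 0.5 for 60 of the 62, with a median of 0.902. It was highest for *atpF* at 0.987 and lowest for *psbM* at -0.551. The mitochondrial genes had a median pair correlation of 0.573, the nuclear probe sets of the run 0.105 and the unlisted ones 0.0811. The mean of the plastid genes and the mean of the mitochondrial genes correlated at 0.83. All of these are descriptions over the same 24 arrays, and the genes share array, RNA sample and scaling.

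The 62 plastid genes were put in their order on the plastid genome, and genes without a kept probe set of their own were passed over. Those next to each other in this order correlated at a median of 0.885 over 61 neighbouring pairs, against 0.786 over 1830 other pairs. Within the cluster of *rps2*, *atpH*, *atpF* and *atpA*, a ribosomal protein gene with genes of the ATP synthase, the pairs correlated between 0.908 and 0.982. The photosystem I core genes *psaA* and *psaB* correlated at 0.950, the photosystem II genes *psbD* and *psbC* at 0.934, and the polymerase genes *rpoC1* and *rpoC2* at 0.954. Neighbours could still differ in the size of their spread. In the cluster of *ndhC*, *ndhK* and *ndhJ* the standard deviation ran between 0.165 for *ndhC* and 1.28 for *ndhJ*, and the lowest pair correlation was 0.292. Of the 5 ATP synthase genes, *atpA*, *atpF* and *atpH* had standard deviations of 1.79, 1.90 and 3.00.

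The median level of the 62 plastid genes on replicates 1 to 4 was 3.29, 0.64, 1.88 and 2.43 in *atl9* after chitin and 0.23, 2.85, 2.99 and 2.33 in *atl9* mock. It was 0.51, 1.92, 3.10 and 1.50 in *rre2* after chitin and 1.22, 3.12, 2.01 and 1.38 in *rre2* mock. It was -1.12, 3.41, 2.70 and 0.92 in Col-0 after chitin and 2.81, 0.95, 3.00 and 1.39 in Col-0 mock. Low and high arrays stood in every group, and the lowest of all was replicate 1 of Col-0 after chitin. The low arrays were mostly those of scan day 4. There the plastid median ran between -1.12 and 2.33 (median 1.09, 12 arrays), against 1.50 to 3.41 (median 2.92, 12 arrays) on scan days 1 to 3. In 5 of the 6 groups both arrays of scan day 4 lay below both earlier ones, with *rre2* after chitin as the exception. The summed signal of the plastid genes was 0.428% to 0.932% of an array's total on scan day 4 and 0.702% to 1.41% on the earlier days.

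**Figure D2:**
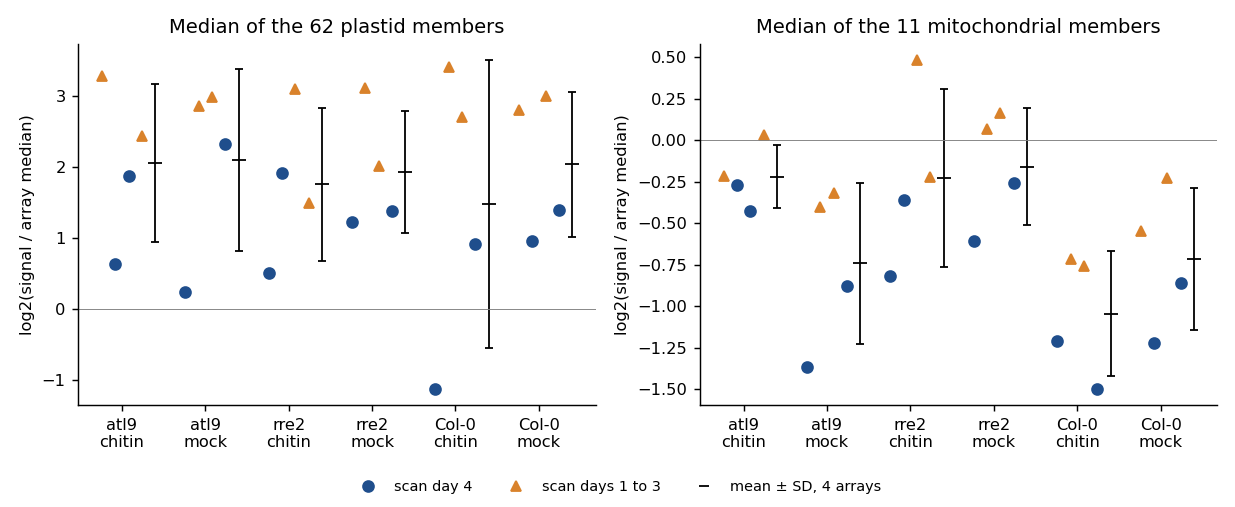
Median level of the 62 plastid genes and of the 11 mitochondrial genes on every array (log2 of signal over array median), by line and treatment; circles are arrays of scan day 4, triangles those of scan days 1 to 3, and bars give the mean ± SD of 4 arrays. The plastid median was lowest on replicate 1 of Col-0 after chitin, at -1.12, and in 5 of 6 groups both circles lie below both triangles.

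The arrays of scan day 4 were therefore compared with those of the earlier days, with the 6 groups as a factor over all 24 arrays. This comparison was chosen after the spread between arrays had been seen. Scan day 4 is a single day, so that the p-values do not measure the spread between days. Lower on scan day 4 at an adjusted p under 0.05 (limma, Benjamini-Hochberg) were 47 of the 62 plastid genes, or 75.8%, and none was higher. Of all probe sets tested, 2.58% were lower. The median difference of the plastid genes was -1.54, and that of all probe sets 0.03. The linear model without moderation found 42 of the 62 lower. A total of 13 plastid genes had all 12 arrays of scan day 4 below all 12 earlier arrays, and 28 had both arrays of scan day 4 below both earlier ones in each of the 6 groups. For the 11 mitochondrial genes these counts were 0 and 2. They were not made over all probe sets, so that they only describe the organelle genes.

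Genes of every plastid complex were among them. Lower on scan day 4 were 14 of 15 genes of photosystem II, 4 of 7 of photosystem I and its assembly, 4 of 6 of the cytochrome b6f complex, 4 of 5 of the ATP synthase and 4 of 7 of the NDH complex, which feeds electrons back into the photosynthetic chain. Beyond these complexes they were *rbcL*, 2 of 3 polymerase genes, 10 of 13 ribosomal protein genes and 4 of 5 others. The median difference was -2.76 for the ATP synthase, -1.96 for the NDH complex, -1.61 for photosystem I, -1.50 for the ribosome, -1.24 for the cytochrome b6f complex and -1.09 for photosystem II.

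The gene *ndhD*, a membrane subunit of the NDH complex, had the largest difference of the plastid genes. In *atl9* its level was 3.37, -0.99, -1.43 and 2.98 after chitin and -1.49, 2.43, 3.13 and 0.31 in mock. In *rre2* it was -1.21, -0.98, 3.47 and 1.28 after chitin and -1.10, 3.58, 2.81 and -1.09 in mock. In Col-0 it was -2.04, 3.64, 1.95 and -1.75 after chitin and 1.98, -1.21, 2.96 and -0.94 in mock. Arrays of scan day 4 lay between -2.04 and 0.31 (median -1.15) and earlier arrays between 1.28 and 3.64 (median 2.97), without overlap. The difference was -3.96 ± 0.27 (SE, adjusted p = 3.88e-08 by limma). For *psaC*, the iron-sulfur subunit of photosystem I that lies next to *ndhD* on the plastid genome, the arrays were also fully apart, at -3.42 to -1.12 (median -2.30) on scan day 4 and -0.51 to 2.00 (median 1.07) on the earlier days, and the difference was -3.27 ± 0.27 (SE, adjusted p = 6.16e-07 by limma).

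The level of *rbcL*, which codes for the large subunit of the carbon-fixing enzyme Rubisco, was -1.89 to 0.69 (median -0.33) on scan day 4 and 0.46 to 2.56 (median 1.47) on the earlier days. These ranges met only at their ends, and the difference was -1.86 ± 0.28 (SE, adjusted p = 7.09e-04 by limma). The level of *psbA*, the gene of the D1 reaction centre protein of photosystem II, was 0.63 to 2.18 (median 1.24) on scan day 4 and 2.40 to 3.88 (median 3.07) on the earlier days. The arrays of *psbA* did not overlap, and the difference was -1.76 ± 0.16 (SE, adjusted p = 1.66e-06 by limma). The steady genes stood apart from this. The difference was 0.15 ± 0.09 for *psbM* (SE, adjusted p = 0.334 by limma), -0.10 ± 0.07 for *ndhC* (SE, adjusted p = 0.439) and -0.21 ± 0.08 for *atpB* (SE, adjusted p = 0.105). *atpE* was lower by -0.36 ± 0.08 (SE, adjusted p = 0.0129 by limma). The genes described here, *ndhD* with the largest difference of the 62 among them, were picked after their values had been seen.

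**Figure D3:**
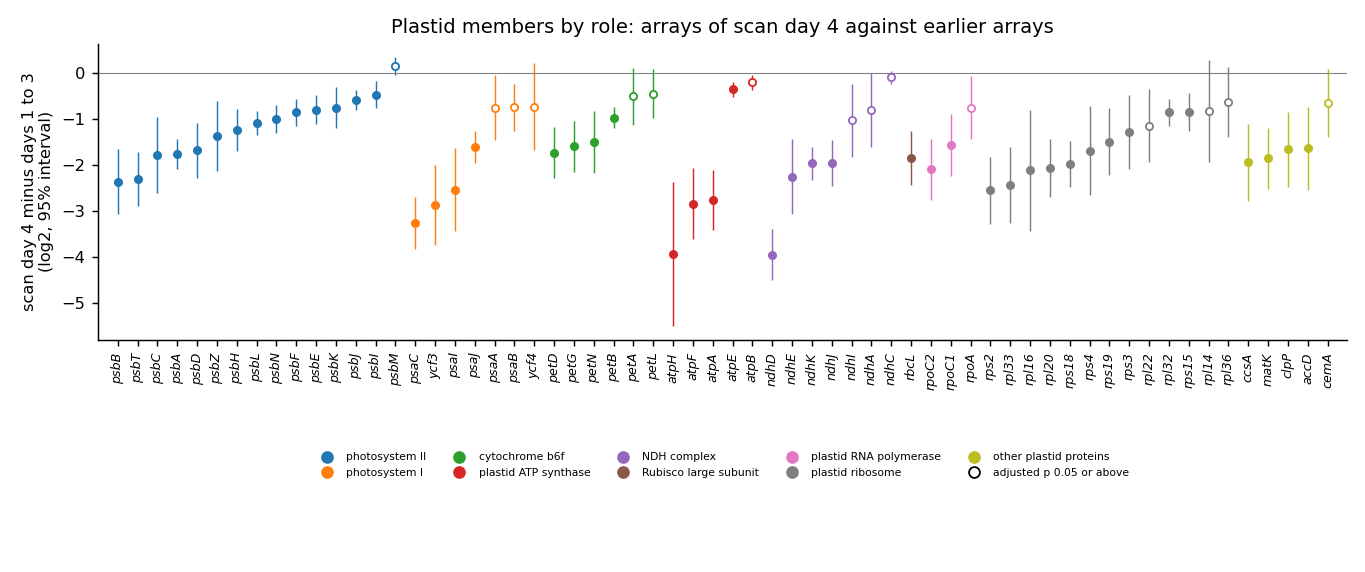
Difference between arrays of scan day 4 and arrays of scan days 1 to 3 (log2, 12 arrays each, groups as a factor) for the 62 plastid genes ordered by role, with 95% intervals; filled points have an adjusted p under 0.05. *psbM* at 0.15 and *ndhC* at -0.10 stand near 0, while *ndhD* reaches -3.96.

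The mitochondrial genes were lower on scan day 4 as well, by less. Of the 11, 5 passed (*ccmFN1*, *mttB*, *nad4*, *nad9* and *cox2*), beside 2.58% of all probe sets, and the median difference was -0.65. The median mitochondrial level was -1.50 to -0.26 on scan day 4 and -0.76 to 0.48 on the earlier days, with both arrays of scan day 4 below both earlier ones in 6 of 6 groups. Without replicate 1 of Col-0 after chitin, 8 mitochondrial and 45 plastid genes passed. Of the 11 nuclear probe sets of the run 3 passed, and these were 3 of the 4 with a locus name beginning AT2G07, in the part of chromosome 2 where Columbia carries a large copy of mitochondrial DNA. None of the other 7 passed by limma. Of the unlisted probe sets 3 of 24 were lower, and both counts stand beside the same 2.58% of all probe sets.

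Some control measures moved with the same arrays, and others did not. The control probe set for 25S ribosomal RNA, a cytosolic RNA without a poly(A) tail, was at -1.28 to 0.03 (median -0.65) on scan day 4 and -0.53 to 1.37 (median 0.19) on the earlier days, with the arrays apart in 5 of 6 groups, and correlated with the plastid mean at 0.646 over the 24 arrays with group means removed. The 3′ minus 5′ difference of the glyceraldehyde 3-phosphate dehydrogenase control, a measure of RNA integrity and labelling length, was -1.16 to -0.42 on scan day 4 and -0.64 to 0.12 on the earlier days, apart in 5 of 6 groups, with a correlation of 0.697. That of ubiquitin was apart in 3 of 6 groups and correlated at 0.735, and that of actin was apart in 1 and correlated at -0.121. The control for 5S ribosomal RNA was apart in 1 of 6 groups and correlated at 0.0978. The part of RNA quality, labelling or scanning in the plastid levels was not tested. The scan day is not a day of extraction or growth.

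No plastid gene passed the test for chitin in any line. The adjusted p was under 0.05 for 0 of the 62 in *atl9*, in *rre2* and in Col-0, while 10.6%, 12.1% and 17% of all probe sets passed in these lines. An unadjusted p under 0.05 was reached by 1 plastid gene in *atl9*, 1 in *rre2* and 2 in Col-0, and the linear model without moderation called 0 in each. The median difference between chitin and mock was 0.10 in *atl9*, -0.13 in *rre2* and -0.10 in Col-0. A typical 95% interval reached 1.80 to either side of its value in the fit of *atl9* with Col-0 and 1.64 in that of *rre2* with Col-0. The interval lay within a 2-fold change either way for only 8 of the 62 genes in *atl9*, 9 in *rre2* and 7 in Col-0, so that for most plastid genes a 2-fold response was not detectable. The response of *rbcL* was 0.40 in *atl9* (95% interval -1.46 to 2.25), -0.08 in *rre2* (-1.65 to 1.49) and -0.03 in Col-0 (-1.88 to 1.83). That of *psbA* was 0.26 in *atl9* (-1.03 to 1.56), 0.29 in *rre2* (-1.30 to 1.88) and 0.55 in Col-0 (-0.74 to 1.85). Without replicate 1 of Col-0 after chitin, the median difference in Col-0 was 0.43. Within scan day 4 it was -0.50 in Col-0, and within the earlier days 0.24.

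The steady gene *ndhC*, a subunit of the NDH complex, was the 1 plastid gene with an unadjusted p under 0.05 for chitin in all 3 lines. Its level in *atl9* was 5.13, 4.81, 4.63 and 4.89 after chitin and 4.46, 4.50, 4.56 and 4.65 in mock. In *rre2* it was 4.70, 4.91, 4.87 and 4.88 after chitin and 4.71, 4.81, 4.25 and 4.36 in mock. In Col-0 it was 4.93, 4.87, 5.08 and 4.83 after chitin and 4.60, 4.56, 4.86 and 4.61 in mock. The groups overlapped in *atl9*, *rre2* and Col-0. The differences were 0.32 ± 0.12, 0.31 ± 0.13 and 0.27 ± 0.12 (SE), with adjusted p = 0.106 in *atl9*, 0.166 in *rre2* and 0.135 in Col-0 by limma. The comparisons between lines share the Col-0 arrays, and *ndhC* was picked after its values had been seen. The second plastid gene under this unadjusted level in Col-0 was *rpl14*, a ribosomal protein gene, at -5.91, 0.83, -1.47 and -2.83 after chitin and 1.27, -0.49, -0.73 and -0.48 in mock. Its difference of -2.24 ± 1.01 (SE, adjusted p = 0.149 by limma) included that low value of replicate 1, which lies far below the array median.

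No plastid gene passed between the lines either. After chitin 0 of 62 plastid genes passed in *atl9* against Col-0, where 5.15% of all probe sets were higher and 7.05% lower, and 0 of 62 in *rre2* against Col-0, where 2.84% were higher and 4.49% lower. In mock 0 of 62 passed in each mutant, with 0.00605% of all probe sets passing for *atl9* and 0% for *rre2*. For the interaction of line and chitin 0 of 62 passed, with 0.454% of all probe sets passing for *atl9* and 0.151% for *rre2*. At an unadjusted p under 0.05 the count after chitin was 1 for *atl9* and 0 for *rre2*, in mock 0 for *atl9* and 1 for *rre2*, and for the interactions 0 for both, and the linear model without moderation called 0 in all 6. The median difference from Col-0 after chitin was 0.34 for *atl9* and 0.07 for *rre2*, and in mock 0.07 and -0.04. Without replicate 1 of Col-0 after chitin the first of these was -0.31 and the second -0.52, so that their sign rested on that array.

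Mitochondrial transcripts were higher in the mutants than in Col-0 after chitin for a few genes. In *atl9* 3 of 11 passed, *nad4L* and *nad9*, both subunits of respiratory complex I, and *cox2*, a core subunit of cytochrome c oxidase. This is 27.3%, beside 5.15% of all probe sets. In *rre2* 1 of 11 passed, *nad4L*, beside 2.84% of all probe sets. The median difference over the 11 genes was 0.97 in *atl9* (10 of 11 above 0) and 0.79 in *rre2* (11 of 11 above 0). For all probe sets it was -0.02 and 0.00. Both comparisons use the same 4 arrays of chitin-treated Col-0.

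The level of *nad4L* was -0.46, -0.27, 0.16 and 0.03 in *atl9* after chitin and -1.07, -0.56, -0.18 and -0.42 in *atl9* mock. It was -0.63, -0.60, 0.55 and -0.22 in *rre2* after chitin and -0.74, 0.05, -0.02 and -0.47 in *rre2* mock. It was -1.0, -1.39, -1.04 and -1.85 in Col-0 after chitin and -0.54, -1.16, -0.23 and -0.57 in Col-0 mock. The 4 chitin arrays of Col-0 lay below all chitin arrays of either mutant. The difference from Col-0 after chitin was 1.19 ± 0.24 in *atl9* (SE, adjusted p = 0.00639 by limma) and 1.10 ± 0.28 in *rre2* (SE, adjusted p = 0.0285). In mock it was 0.07 in *atl9* (adjusted p = 0.976 by limma) and 0.33 in *rre2* (adjusted p = 0.937). Within Col-0 the chitin response of *nad4L* was -0.70 ± 0.24 (SE, adjusted p = 0.0589 by limma), and the interaction of *atl9* and chitin was 1.12 ± 0.34 (SE, adjusted p = 0.144), so that a different chitin response of the mutant was not shown.

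The level of *cox2* after chitin was 0.59, -0.22, -0.45 and 0.35 in *atl9*, -0.23, -0.25, 0.48 and -0.44 in *rre2*, and -0.82, -0.71, -0.56 and -1.50 in Col-0. In mock it was -1.37, -0.63, -0.32 and -0.92 in *atl9*, -0.08, 0.24, 0.17 and -0.08 in *rre2*, and -0.57, -1.22, -0.10 and -0.70 in Col-0. In mock the 4 arrays of Col-0 lay below those of *rre2* and overlapped those of *atl9*. After chitin the 4 arrays of Col-0 were below those of both mutants, as for *nad4L*. The difference was 0.97 ± 0.29 in *atl9* (SE, adjusted p = 0.0438 by limma) and 0.79 ± 0.25 in *rre2* (SE, adjusted p = 0.0686). The level of *nad9* after chitin was 0.51, -0.23, 0.15 and 0.08 in *atl9*, -0.82, -0.36, 0.39 and 0.01 in *rre2*, and -1.21, -0.38, -0.76 and -1.11 in Col-0. In mock it was -0.68, -0.07, 0.15 and -0.22 in *atl9*, -0.13, 0.07, 0.70 and -0.03 in *rre2*, and -0.36, -1.39, 0.16 and -1.33 in Col-0. After chitin only *atl9* was clear of Col-0, and the *nad9* difference was 0.99 ± 0.31 in *atl9* (SE, adjusted p = 0.0493 by limma) and 0.67 ± 0.34 in *rre2* (SE, adjusted p = 0.251). The mean of *nad9* in mock was -0.20 in *atl9*, 0.15 in *rre2* and -0.73 in Col-0, so that it was higher in both mutants without chitin too.

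**Figure D4:**
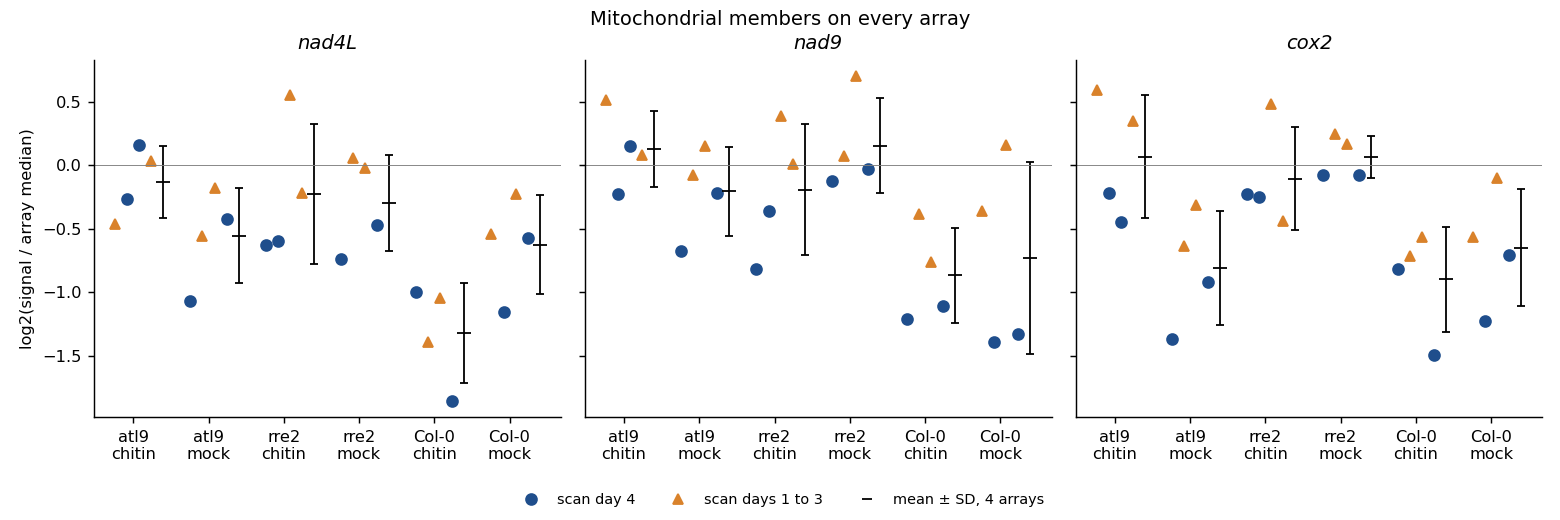
Levels of *nad4L*, *nad9* and *cox2* on every array (log2 of signal over array median) by line and treatment; circles are arrays of scan day 4, triangles those of scan days 1 to 3, and bars give the mean ± SD of 4 arrays. For *nad4L* the chitin arrays of Col-0, at -1.85 to -1.0, lie below those of *atl9* and *rre2*.

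These calls were close to the threshold. With a linear model without moderation 1 of 11 passed in *atl9* and 0 in *rre2*. In *atl9* the count was 1 without replicate 2 or 4 of *atl9* mock, 1 or 4 of *atl9* after chitin, 1 of Col-0 mock, or 1, 3 or 4 of Col-0 after chitin. In *rre2* the call of *nad4L* was lost without replicate 2 or 4 of Col-0 after chitin or 3 or 4 of *rre2* after chitin. *nad4L* kept its call in *atl9* in all 16 fits with 1 array left out, while *cox2* and *nad9* each kept theirs in 6 of 16. Within scan day 4 its difference in *atl9* was 1.37 (adjusted p = 0.149 by limma) and within the earlier days 1.00 (adjusted p = 0.0648). With the scan day as a block the same 3 genes passed in *atl9*, at 1.18 for *nad4L*, 0.99 for *nad9* and 0.88 for *cox2*.

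The other mitochondrial genes gave values without passing in either mutant after chitin. The cytochrome c maturation genes *ccmFN2*, *ccmFC*, *ccmFN1* and *ccmB* differed from Col-0 by 1.60, 0.63, 0.36 and -0.01 in *atl9* and by 0.95, 0.81, 0.33 and 0.70 in *rre2*. The complex I genes *nad6* and *nad4* differed by 0.97 and 0.76 in *atl9* and by 1.02 and 0.59 in *rre2*. The maturase gene *matR*, which acts in intron splicing, differed by 1.95 in *atl9* and 1.76 in *rre2*, and the transporter gene *mttB* by 0.06 in *atl9* and 0.32 in *rre2*. The 4 arrays of *matR* in Col-0 after chitin spanned -4.96 to -1.78, and its standard deviation within groups was 1.40, so that its differences were large and not past the spread.

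The 3 mitochondrial genes named for their high mean had standard deviations within groups of 1.17 for *ccmFN1*, 0.727 for *nad4* and 0.407 for *ccmFC*, of which the last was among the steadiest of the 11. The level of *ccmFN1* was 2.33, 0.39, 1.19 and 2.51 in *atl9* after chitin and -0.53, 2.50, 2.16 and 1.36 in *atl9* mock, 0.40, 1.2, 2.72 and 1.98 in *rre2* after chitin and 0.08, 2.55, 3.27 and 1.90 in *rre2* mock, and -0.15, 2.54, 1.64 and 0.95 in Col-0 after chitin and 2.17, -0.10, 2.40 and 1.41 in Col-0 mock. The level of *nad4* was 1.47, 0.94, 1.09 and 1.68 in *atl9* after chitin and 0.11, 1.66, 1.54 and 0.79 in *atl9* mock, 0.40, 0.71, 2.1 and 1.32 in *rre2* after chitin and 0.01, 2.04, 2.06 and 0.99 in *rre2* mock, and 0.15, 1.03, 0.91 and 0.06 in Col-0 after chitin and 0.99, -0.42, 1.60 and 0.32 in Col-0 mock. Both genes overlapped between lines and between treatments. The level of *ccmFC* was 1.60, 1.27, 1.28 and 1.60 in *atl9* after chitin and 0.80, 1.17, 1.69 and 1.59 in *atl9* mock, 1.22, 1.51, 2.2 and 1.52 in *rre2* after chitin and 1.11, 1.91, 2.18 and 1.86 in *rre2* mock, and 0.93, 1.07, 0.83 and 0.40 in Col-0 after chitin and 1.42, 0.48, 1.81 and 1.47 in Col-0 mock. For *ccmFC* the chitin arrays of Col-0 lay below those of both mutants, and the adjusted p was 0.119 in *atl9* and 0.104 in *rre2* by limma.

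Mitochondrial probe sets outside the run gave similar values. Of 8 tested, for *nad1*, *nad5* and *cox1*, 2 passed after chitin in *atl9* and the same 2 in *rre2*. Of all probe sets 5.15% were higher in *atl9* and 2.84% in *rre2*. Both report *nad5*, another subunit of complex I, with differences from Col-0 of 1.38 ± 0.33 and 0.98 ± 0.24 in *atl9* (SE, adjusted p = 0.0158 and 0.0184 by limma) and of 1.32 ± 0.36 and 0.85 ± 0.21 in *rre2* (SE, adjusted p = 0.0386 and 0.0266). In mock the same probe sets had differences of 0.51 and 0.90 in *atl9* (adjusted p = 0.805 and 0.563 by limma) and of 1.00 and 1.21 in *rre2* (adjusted p = 0.781 and 0.272). These did not pass, though the second in *rre2* was larger than the value after chitin. The 2 probe sets share a gene, and all 8 differences after chitin were above 0 in each mutant. The median after chitin was 0.63 in *atl9* and 0.53 in *rre2*. In mock the 8 differences ran between 0.08 and 1.21 in *rre2* and between -0.21 and 0.90 in *atl9*. The sign in *rre2* was thus not particular to chitin. In *atl9* the second *nad5* probe set differed about as much in mock (0.90) as after chitin (0.98), while the first had 0.51 and 1.38.

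Chitin itself moved no mitochondrial gene of the run past the threshold. The count was 0 of 11 in *atl9*, *rre2* and Col-0, beside 10.6%, 12.1% and 17% of all probe sets, with 1, 0 and 1 at an unadjusted p under 0.05 and 0 in each by the linear model without moderation. The median response was 0.33 in *atl9*, -0.15 in *rre2* and -0.36 in Col-0. In mock 0 of 11 passed in either mutant, with 1 of 11 in *atl9* and 2 of 11 in *rre2* at an unadjusted p under 0.05, and the median difference from Col-0 was 0.02 in *atl9* and 0.47 in *rre2*. The interaction with chitin passed for 0 of 11 in either mutant by limma, with 2 in *atl9* and 0 in *rre2* at an unadjusted p under 0.05.

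**Figure D5:**
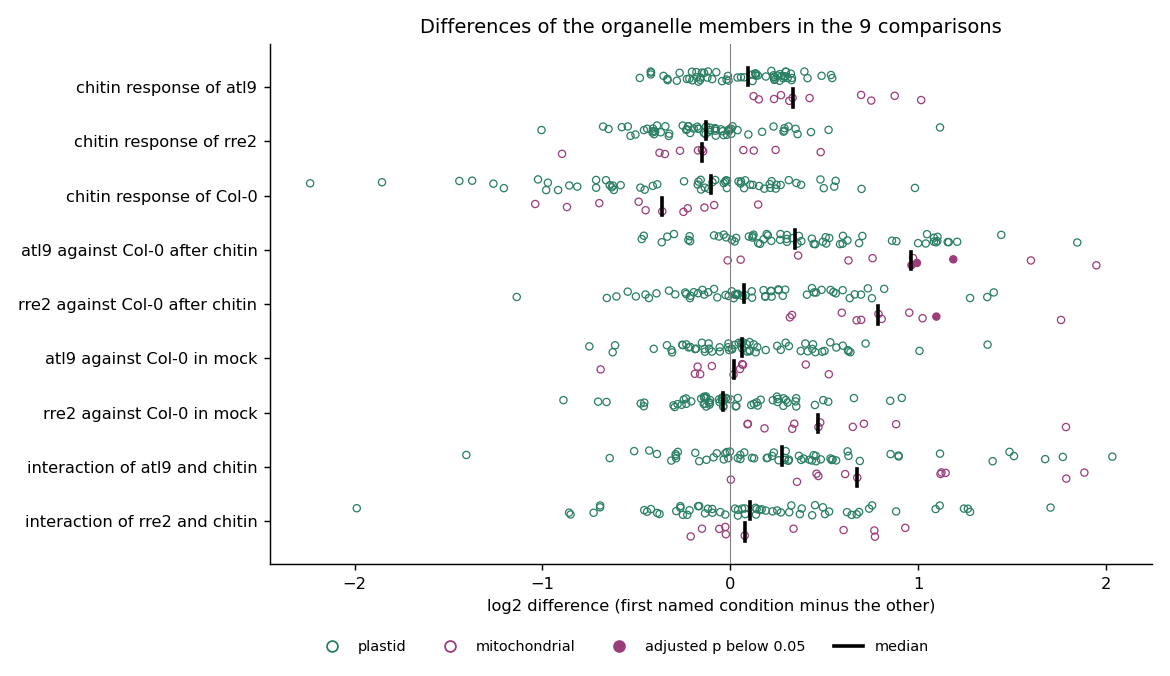
Log2 differences of the 62 plastid and 11 mitochondrial genes in the 9 comparisons, 1 point per gene, with medians as black bars; filled points have an adjusted p under 0.05. The filled points are *nad4L*, *nad9* and *cox2* in *atl9* against Col-0 after chitin and *nad4L* in *rre2* against Col-0 after chitin; the comparisons share arrays.

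Nuclear genes of the same organelles were compared from lists. Of 42 listed nuclear photosynthesis genes 8 were tested, and 7 of them rose after chitin in Col-0, where 11.4% of all probe sets rose, with a median of 0.78 and *PSBW*, a photosystem II subunit, at 0.84. In *atl9* and *rre2* 0 of the 8 passed by limma (1 and 2 at an unadjusted p under 0.05), with medians of 0.12 and -0.13. Against chitin-treated Col-0, 1 of the 8 was lower in *atl9* (5 at an unadjusted p under 0.05) and 7 were lower in *rre2*, beside 7.05% and 4.49% of all probe sets, with a median of -0.45 in *atl9* and -0.88 in *rre2*. Their standard deviation within groups had a median of 0.249, and their correlation with the plastid mean a median of -0.133. On scan day 4 against the earlier days 0 of the 8 passed by limma, with 1 at an unadjusted p under 0.05 and a median of 0.09.

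Of 25 listed nuclear genes of the mitochondrial respiratory chain 11 were tested. In *atl9* after chitin 3 had a lower level than in Col-0, namely AT3G15640 by -1.0 ± 0.15 (SE, adjusted p = 0.00117 by limma), *FRO1*, a complex I subunit, by -0.49 and AT5G47030 by -0.42, and 0 were higher, beside 7.05% of all probe sets lower and 5.15% higher. The median was -0.33, where the mitochondrial genes had 0.97. In *rre2* against Col-0 after chitin 0 of the 11 passed by limma and 3 did at an unadjusted p under 0.05, beside 2.84% of all probe sets higher and 4.49% lower. On scan day 4 against the earlier days 1 of the 11 was higher and 0 were lower by limma, with 6 at an unadjusted p under 0.05. Of all probe sets 2.58% were lower, and the share that was higher is not given here. The correlation of the 11 with the plastid mean had a median of -0.573. Both tested reference genes also had an unadjusted p under 0.05 for scan day, with a median correlation of -0.508. Of 13 listed genes of alternative respiration 3 were tested, and *NDB2*, an alternative NADH dehydrogenase, had a difference of -0.48 in *atl9* after chitin (adjusted p = 0.0397 by limma), while the other 2, which did not pass, had 0.53 and 0.79. In Col-0 1 of the 3 fell after chitin, AT2G21640, with a difference of -0.91 (adjusted p = 0.0254 by limma). For this response 17% of all probe sets passed in either direction, and 11.4% of all probe sets rose. Only 1 of 34 listed genes for organelle transcription and RNA turnover was tested, and it passed in no comparison by limma.

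Some probe sets of the run that are not named as organellar moved with the organelle genes. With group means removed, the nuclear AT2G07708 and AT2G07751 correlated with the mitochondrial mean at 0.903 and 0.890, and the unlisted 244903_at at 0.919. Others passed for chitin or between the lines. *AR781*, on chromosome 2, was at 6.04, 6.81, 6.51 and 6.43 in *atl9* after chitin and 4.54, 3.63, 3.73 and 4.02 in *atl9* mock. It was at 6.52, 6.20, 6.22 and 6.20 in *rre2* after chitin and 3.79, 3.78, 4.76 and 4.76 in *rre2* mock, and at 6.59, 5.72, 6.09 and 6.12 in Col-0 after chitin and 3.93, 4.44, 4.31 and 3.80 in Col-0 mock. The treatments did not overlap in any line, and the rise was 2.46 ± 0.23 in *atl9*, 2.01 ± 0.25 in *rre2* and 2.01 ± 0.23 in Col-0 (SE, adjusted p = 1.15e-06, 2.17e-05 and 1.45e-05 by limma). The leucine-rich repeat gene AT2G26380 rose by 2.21 ± 0.44 in *atl9* and 2.1 ± 0.44 in *rre2* (SE, adjusted p = 0.00287 and 0.00385 by limma), and was 0.33 ± 0.44 (SE, adjusted p = 0.666) in Col-0. After chitin it was at 1.25, 3.39, 2.55 and 2.47 in *atl9*, 1.61, 2.40, 2.89 and 1.94 in *rre2* and 1.14, 0.31, 0.25 and 0.73 in Col-0, with no overlap between either mutant and Col-0.

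Its difference from Col-0 after chitin was 1.81 ± 0.44 in *atl9* (SE, adjusted p = 0.0173 by limma) and 1.60 ± 0.44 in *rre2* (SE, adjusted p = 0.0398). The call in *rre2* was kept in 10 of 16 fits with 1 array left out, and was lost without replicate 2, 3 or 4 of *rre2* or of Col-0 after chitin. The interactions, at 1.88 and 1.77, had adjusted p = 0.185 and 0.240. Its neighbour AT2G26390, of the serpin family of protease inhibitors, rose by 1.84 ± 0.29 in *atl9* and 1.88 ± 0.32 in *rre2* (SE, adjusted p = 2.90e-04 and 5.98e-04 by limma). In Col-0 the rise was 0.88 ± 0.29 (SE, adjusted p = 0.0466), a call kept in 5 of 16 fits with 1 array left out. The unlisted probe set 245038_at was at 6.50, 6.72, 6.42 and 6.48 in *atl9* after chitin and 5.68, 5.78, 5.39 and 5.05 in *atl9* mock, and at 6.56, 6.88, 6.99 and 6.92 in *rre2* after chitin and 5.05, 6.0, 5.80 and 5.53 in *rre2* mock. In Col-0 it was at 6.48, 6.28, 6.38 and 6.38 after chitin and 5.65, 6.53, 5.85 and 5.62 in mock. The treatments were apart in both mutants and overlapped in Col-0, and it rose by 1.05 ± 0.19 in *atl9* and 1.25 ± 0.21 in *rre2* (SE, adjusted p = 0.00116 and 5.64e-04 by limma), with a difference of 0.47 ± 0.19 in Col-0 (SE, adjusted p = 0.109). Another, 245035_at, was at 2.66, 3.67, 3.17 and 2.47 in *atl9* after chitin and 5.00, 4.38, 4.22 and 4.63 in Col-0 after chitin, without overlap, a difference of -1.57 ± 0.35 (SE, adjusted p = 0.0115).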

How the data were processed

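Whole seedlings of 3 lines were treated with chitin or water and hybridized to 24 ATH1 arrays, 4 for each group. Signals were computed by the authors in Affymetrix software, and the deposited intensities are linear, with every array brought to a trimmed mean of 500. Later GeneSpring steps of the authors are absent from these values. Instrument-setting text files, also deposited, gave scan day and fluidics module. One label field calls the chitin-treated Col-0 samples untreated, and they were taken as chitin-treated from their titles and source names.

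Gene names came from the platform's annotation table, updated and placed with TAIR10.1. Names and gene order were used, not coordinates. Each array was divided by its median over probe sets that are not controls (64 were left out), and log2 was taken without an offset. The probe sets of highest mean were tested in limma 3.58.1 under R 4.3.3 (lmFit and eBayes) in fits of the 16 arrays of Col-0 and 1 mutant, with Benjamini-Hochberg adjustment over all of them. The Col-0 response came from the fit with *atl9*. Intervals are 95% intervals of the fits. Scripts were tested on simulated data. P-values of the comparisons between groups measure the spread between replicate arrays, which includes the difference between scan days. Those of the comparison of scan days measure the spread between arrays and not between days. The replicate numbers were checked for pairing, with 16 of 60 same-numbered pairs correlating above 0.1, so the samples were treated as unpaired.

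Values on every array are given for the 3 genes of highest mean per organelle genome and for up to 3 genes of smallest adjusted p per genome and comparison. Unlisted probe sets follow the same rule, up to 2 per comparison. Up to 3 genes of each nuclear list were named. The members and lists were chosen with earlier results of these data known. The alternatives tried were quantile normalization, the values without division by the array median, a stricter or no filter, an offset of 32, all 24 arrays in 1 fit, no moderation, each array left out, a replicate block, a scan day block and scan day 4 alone. Scan days 1 to 3 alone and the comparison of scan days were added after the data were seen. The number of arrays limits the precision.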

Additional observations from a re-analysis of the deposited data

Results flagged for a closer look

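Among 16 probe sets whose values on every array were looked at in the 6 groups, 4 of 96 groups held 1 array far from the other 3, while chance gives about 1 group in 20. The level of *psbM* was 7.07 on replicate 1 of Col-0 after chitin, against 6.74 to 6.76 on the other arrays of that group. This is the array with the lowest plastid median. The level of *atpB* was 6.63 on replicate 2 of *rre2* mock, against 6.26 to 6.31 on the others. The level of 245035_at was 3.12 on replicate 3 of *rre2* after chitin, against 4.46 to 4.68 on the others, and that of *AR781* was 6.52 on replicate 1 of *rre2* after chitin, against 6.20 to 6.22.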

How the results depend on the processing

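The lack of plastid calls and the small count of mitochondrial calls were sensitive to single genes at the threshold, and no result changed its sign where it was called. For mitochondrial genes higher than in Col-0 after chitin, 3 in *atl9* and 1 in *rre2*, the count was 1 and 0 with no filter, 0 and 0 with a stricter filter that tested only the brighter members, 1 and 0 without moderation, and 0 and 0 on scan day 4 alone. The scan day block gave 3 in *rre2*. With the replicate block the count was 1 in *atl9*, 2 in *rre2* and 1 for the chitin response of Col-0, and no other comparison between groups changed its call; same-numbered arrays correlated between -0.275 and 0.262. The chitin response of mitochondrial genes, 0 in each line, was 1 in Col-0 with values as deposited, 1 in *atl9* with an offset of 32, with all 24 arrays in 1 fit and with the scan day block, and 1 in both *atl9* and Col-0 on scan days 1 to 3 alone. Plastid genes, 0 in each comparison, were called once for the chitin response of *atl9* and once for *atl9* against Col-0 after chitin with quantile normalization, once for the chitin response of Col-0 with the scan day block, once for that of *rre2* on scan day 4 alone and once for *rre2* against Col-0 after chitin on scan days 1 to 3 alone. With 1 array left out, the mitochondrial count was 1 to 3 for *atl9* and 0 to 2 for *rre2* against Col-0 after chitin, 0 to 2 for the chitin response of Col-0 and 0 to 1 for that of *atl9*, and the plastid count was 0 to 1 for the chitin response of Col-0 and for *atl9* against Col-0 after chitin. The genes lower on scan day 4 then numbered 40 to 51 of the plastid and 5 to 8 of the mitochondrial genes, and over the other settings 34 to 47 and 3 to 7, with the lowest counts under the stricter filter, which tests fewer members. The causes were not tested. Dim members lie near the filter, and their spread limits what 4 arrays a group can show.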

Other observations

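Probe sets outside the run with profiles like the plastid mean over the 24 arrays, after the group means were removed, were few. A correlation above 0.8 was found for 49 of them and one below -0.8 for 203, with a median of -0.114 over all. The most alike were 255959_at at 0.958, 264667_s_at at 0.936, 264155_at at 0.924, AT3G05670 at 0.903 and AT1G25390 at 0.901. Their differences between scan day 4 and the earlier days ran between -0.81 and -0.37. Most like the mitochondrial mean were 265228_s_at at 0.938, AT4G30460 at 0.911, 265232_s_at at 0.902, AT1G76010 at 0.899 and AT1G22610 at 0.892. These correlations describe the same arrays that the means came from.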
